A study of Mus musculus with 36 samples.

Results

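The question here is whether losing 1 working copy of Ddx3x changes how messenger RNAs are shared between single and multiple ribosomes in the embryonic mouse cortex. It was taken as the genotype effect in the polysome minus the genotype effect in the monosome, gene by gene, in 12 of the 36 libraries of a polysome fractionation series. These were the monosome and polysome libraries of the LoF cross, 3 for each genotype and fraction. The LoF conditional heterozygotes (cHet, Emx1-Cre/+;Ddx3x lox/+) were female E14.5 embryos whose cortex cells carry Cre under Emx1, a gene of the dorsal forebrain lineage. Their controls (Ddx3x lox/+) had the lox-flanked allele and no Cre, so Cre itself also separates the groups and cannot be told apart from the loss of Ddx3x. A second cross in the series is used for comparison only. Its cHet were Emx1-Cre/+;Ddx3x-T532M lox/+ and its controls Emx1-Cre/+, again with 12 monosome and polysome libraries. Each sample pooled the cortices of 2 embryos, and its lysate was spun through a 15 to 50% sucrose gradient cut into 12 fractions. Libraries with the same genotype and number came from 1 lysate, called a pool below. The sources used here do not give which of the gradient fractions make up a monosome or a polysome sample, nor whether some pools came from 1 litter, so p-values speak for these pools only.

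DDX3X is a DEAD-box RNA helicase. It helps the small ribosomal subunit to scan long or structured leaders (5' UTRs) towards the start codon, and mRNAs with GC-rich leaders are known to lean on it most. An mRNA that starts less often carries fewer ribosomes and sediments nearer to the monosome, so the polysome to monosome ratio is a usual readout of such a change. The gene lies on the X chromosome, and one X is silenced in each female cell, so a heterozygous cortex is a mosaic. In humans, variants in DDX3X cause a neurodevelopmental disorder that affects mostly females.

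The LoF polysome libraries held 45154717 to 55796933 read pairs, and the monosome libraries 38566139 to 44573081. In the control pools 6746 genes (36.4%) were higher and 8330 (44.9%) lower in polysome than in monosome at an adjusted p under 0.05, so the fractions were well apart. Emx1, which marks the labelled tissue, was at 29.3 to 42.4 CPM in the polysome (CPM, counts scaled to library size with TMM). The pools differed within each genotype as well as between genotypes. Ttr, made by choroid plexus, had input levels of 39.3, 0.531 and 0.0441 CPM in cHet pools 1, 2 and 3, against 159.8, 1.48 and 183.3 CPM in control pools 1, 2 and 3. Gene models over ribosomal RNA took 2.57, 0.755 and 0.772% of polysome read pairs in the cHet pools, against 2.64, 2.3 and 2% in the control pools. In the input they took 4.53, 4.44 and 5.27% in cHet and 0.566, 1.7 and 1.43% in control pools, with no overlap. Mitochondrial read pairs of the input were 1.719, 2.16 and 1.735% in cHet and 3.378, 2.713 and 2.388% in control pools, without overlap. The part of these differences in the results was not tested. By a chi-square of counts per degree of freedom, polysome libraries of cHet pools 2 and 3 were close (17.6), while that of cHet pool 1 stood at 69.1 and 96.1 from them. Values without single pools, cHet pool 1 among them, are given beside the lists and slopes they move most.

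The start codons of 8 genes named below are shown first, since the leader is where DDX3X acts. They are the 3 genes with the smallest p among the named decreases, 3 of the 4 among the named increases, and 2 of the 11 genes past the threshold in the T532M cross. Each run gives 24 bases of the leader, the start codon in capitals and 3 coding bases, 5' to 3', from 1 GENCODE M21 transcript a gene on GRCm38.
Dgat2 (chr7:99182507-99182536, minus strand): gccgtgacgtgcattggcttcagcATGaag
Aoc2 (chr11:101325069-101325098, plus strand): acggggggagcttcagtgccagccATGaat
Dtx1 (chr5:120710308-120710337, minus strand): ctggccccgcaggcggcagcggccATGtca
Rcor2 (chr19:7268938-7268967, plus strand): ccctcggggctgccgggtagggtaATGccc
Prkaca (chr8:83973163-83973192, plus strand): ggccccggccgcgacgccgccgcgATGggc
Sat1 (chrX:155216163-155216192, minus strand): agggaagaaaagcaaaagacgaaaATGgct
Igfbp7 (chr5:77408009-77408038, minus strand): cgcgcgctcgcatccagccaccttATGatg
Nop10 (chr2:112262000-112262029, plus strand): tgtgtctttttgctgagggcagttATGttt
The annotated leaders of Dgat2, Aoc2 and Dtx1 hold 72, 70 and 66.3% G or C, those of Rcor2 and Prkaca 76 and 83%, and those of Sat1, Igfbp7 and Nop10 55.5, 69.2 and 57.1%. Their lengths run from 26 bases in Igfbp7 to 1105 in Dtx1. The windows around the start codon hold from 40% G or C in Sat1 and Nop10 to 90% in Prkaca, counted over all 30 bases shown. For scale, the middle quintile of leader GC over genes with a mean of at least 2 CPM ran from 62.6 to 67.9%. The 8 genes are examples and do not test a leader pattern.

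No gene changed its polysome over monosome ratio past the threshold in LoF cHet. Of 18556 genes tested with edgeR's quasi-likelihood test on the 18 libraries of the cross, 0 (0%) had a Benjamini-Hochberg adjusted p under 0.05, and the smallest adjusted p was 1. DESeq2 also called 0, with 688 genes at an unadjusted p under 0.05. At an unadjusted p under 0.05 there were 561 genes (3.02%), 294 higher (1.58%) and 267 lower (1.44%) in cHet. The pool ratios did not overlap between genotypes for 728 genes higher in cHet (3.92%) and 861 lower (4.64%). Changes were centred on 0, with a median of -0.0056 on the log2 scale, and 49.1% of genes were above 0.

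The data bound the size of a change for most genes of moderate level. Among the 12477 genes with a mean of at least 2 CPM over the 12 libraries, the median standard error of the change was 0.204 (log2), and 90% of the changes lay between -0.324 and 0.328. The 95% interval of the change excluded a 2-fold shift in either direction for 11397 of them (91.3%) and a 1.5-fold shift for 6666 (53.4%). Only 12 had an estimate beyond 2-fold. Under 2 CPM the median standard error was 0.754, and the interval excluded a 2-fold shift for 304 of 6079 genes, so little can be said of weakly expressed genes.

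**Figure D1:**
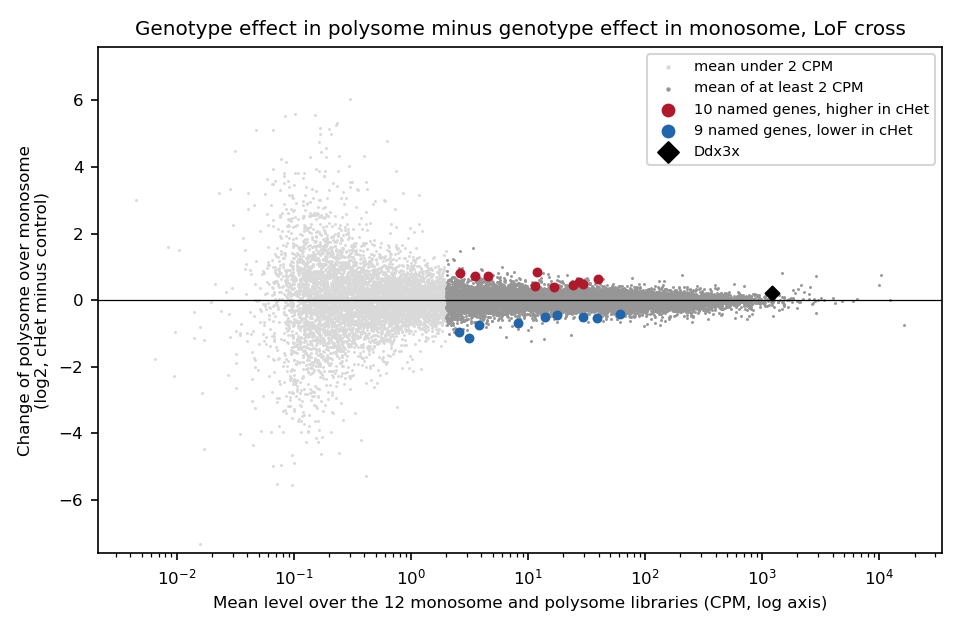
Change of polysome over monosome in LoF (log2, cHet minus control) against mean level over the 12 monosome and polysome libraries (CPM, log axis), 1 point for each of 18556 genes. The spread narrows from low to high level, the 19 named genes plotted sit at the edge of the cloud, and Ddx3x (0.21) lies near 0.

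The targeted gene, Ddx3x (ENSMUSG00000000787.12, at 13280970 to 13294052 on the plus strand of chromosome X, GRCm38), was a well-loaded mRNA in both genotypes. Its polysome level was 2267, 1721 and 1799 CPM in cHet pools and 2516, 2093 and 2602 CPM in control pools. Its monosome level was 255, 178 and 198 CPM in cHet pools and 284, 344 and 281 CPM in control pools. The cHet monosome libraries all lay below the controls, while the polysome libraries overlapped. The log2 polysome to monosome ratio was 3.15, 3.27 and 3.19 in cHet and 3.15, 2.60 and 3.21 in control pools, a change of 0.21 (SE 0.31, 95% interval -0.43 to 0.85, unadjusted p = 0.504, edgeR). Control pool 2 holds the low value, and without it the change was 0.0146. Reads were counted over introns and exons alike, with the lox-flanked stretch not known here, so this is no check of the deletion.

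The 10 increases with the smallest unadjusted p, among genes with an assigned name, at least 2 CPM and ratios that did not overlap, included genes of polyamine breakdown, ribosome assembly and transcription. Sat1, the enzyme that acetylates spermidine and spermine for breakdown or export, was at 2.52, 3.24 and 3.77 CPM in cHet polysomes and 1.74, 2.45 and 2.5 CPM in control polysomes. In the monosome it was at 19.3, 18.9 and 17.4 CPM in cHet and 22.6, 23.8 and 23.8 CPM in control. Its ratio was thus higher in every cHet pool than in any control pool, by 0.85 on the log2 scale (SE 0.21, unadjusted p = 0.000837, adjusted p = 1, edgeR). Igfbp7, a secreted binding protein of insulin-like growth factors that vessels make, was at 6.33, 8.56 and 7.35 CPM in cHet polysomes against 4.98, 4.9 and 5.02 CPM in control polysomes, with a change of 0.72 (SE 0.20, unadjusted p = 0.00148). Nop10, a core protein of the H/ACA particles that modify ribosomal RNA, differed mainly in the monosome, with 59.4, 65.1 and 60.9 CPM in cHet against 95.3, 73.6 and 88.2 CPM in control. Its change was 0.65 (SE 0.20, unadjusted p = 0.00425), and control pool 2 lay closest to the cHet pools. Rpf2, which helps to build the large ribosomal subunit, had a change of 0.49 and Sox18, a transcription factor of endothelial cells, one of 0.82. Taf7 of the general transcription factor TFIID, Mnat1 of the TFIIH kinase, the mitotic protein Depdc1b, the vesicle SNARE Vamp8 and the peroxidase Gpx8 of the endoplasmic reticulum had changes of 0.55, 0.40, 0.47, 0.74 and 0.43. None of the 10 passed the adjusted threshold. They are the edge of a distribution in which 393 named genes at this level had ratios higher in all cHet pools.

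The decreases chosen in the same way, of which 9 of 10 are described, included enzymes of lipid metabolism and of Notch signalling. Dgat2, the last step of triglyceride synthesis, was at 1.35, 1.59 and 1.39 CPM in cHet polysomes and 1.97, 2.66 and 2.3 CPM in control polysomes. Its monosome values overlapped, with 3.19, 3.6 and 4.01 CPM in cHet and 3.44, 2.55 and 2.96 CPM in control, and its change was -0.95 (SE 0.24, unadjusted p = 0.000967, adjusted p = 1, edgeR). Degs2, a sphingolipid desaturase, had a change of -1.13 (SE 0.37), the largest of the genes named by this rule, and was low in the polysome, at 0.43, 0.511 and 0.444 CPM in cHet against 0.918, 1.05 and 1.15 CPM in control. Dtx1, an E3 ligase of Notch signalling, differed mainly in the monosome, with 22.3, 30.6 and 30.2 CPM in cHet against 21.6, 20.8 and 21 CPM in control. In the polysome it was at 50.2, 47.2 and 53.5 CPM in cHet and 52.5, 62.9 and 52.9 CPM in control, values that overlapped. Its change was -0.55 (SE 0.16, 95% interval -0.89 to -0.21, unadjusted p = 0.00343, edgeR). The remaining changes were -0.67 for the amine oxidase Aoc2, -0.44 for the peroxisome protein Pex26, -0.74 for the co-chaperone Dnaja4, -0.50 for the hydroxylase Jmjd4, -0.50 for Mmab of cobalamin metabolism and -0.42 for the axon degeneration enzyme Sarm1. None passed the adjusted threshold, and 557 named genes at this level had ratios lower in all cHet pools.

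**Figure D2:**
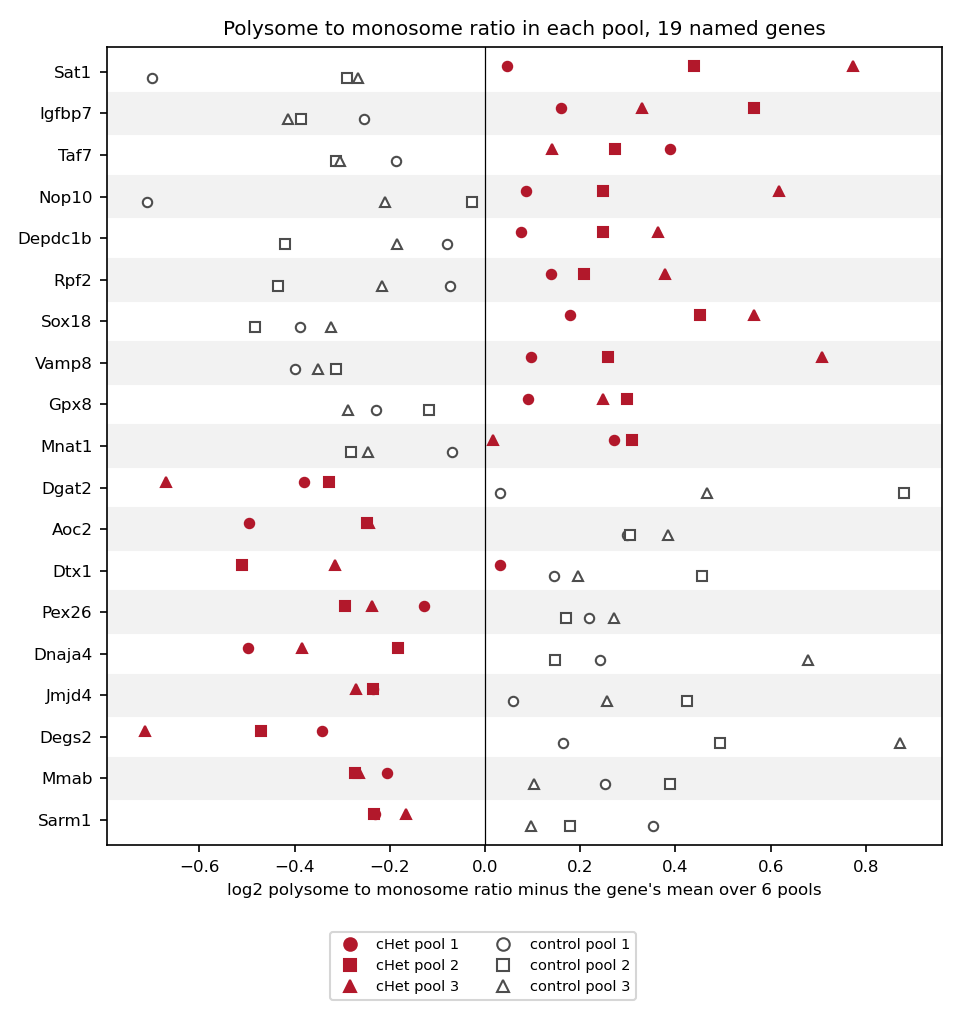
Log2 polysome to monosome ratio in each pool, minus the gene's mean over the 6 pools, for the 10 named increases (upper rows) and 9 named decreases (lower rows); filled red symbols are cHet pools and open grey symbols control pools. The genotypes do not overlap in any row because the genes were chosen so, and the width of each cluster shows how far pools of 1 genotype differ.

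In the decreases chosen by p, the larger effect was mostly in the monosome. Of the 146 genes at 2 CPM or more with an unadjusted p under 0.05 and a lower ratio in cHet, 136 were lower in the cHet polysome and 144 higher in the cHet monosome by sign. The monosome effect was the larger of the pair in 112 (76.7%), against 57.6% of all 12477 genes at this level. Their median genotype effect was -0.128 in the polysome and 0.279 in the monosome. The 138 genes with a higher ratio split more evenly, with a median of 0.232 in the polysome and -0.219 in the monosome and a larger monosome effect in 61 (44.2%). The choice by the ratio fixes the difference between both effects, and with it most of the counts by sign. It can also favour the fraction with more spread, so the 57.6% of all genes is no matched baseline.

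The mRNAs reported in earlier work to depend on DDX3X were split in direction. All 14 listed were tested, and 13 of them had a mean of at least 2 CPM. By sign 6 were higher and 8 lower in cHet, and 0 passed the adjusted threshold. The median change was -0.0577 against -0.0075 over all genes at 2 CPM or more. Rcor2, a corepressor of neuronal genes, was the 1 member with an unadjusted p under 0.05, against 1.44% of all genes in that direction. It was at 221, 247 and 260 CPM in cHet polysomes and 245, 246 and 269 CPM in control polysomes, and at 127, 148 and 142 CPM in cHet monosomes against 110, 111 and 108 CPM in control monosomes. All cHet monosome values lay above all control values, and the polysome values overlapped. Its change was -0.40 (SE 0.14, 95% interval -0.69 to -0.11, unadjusted p = 0.0093, adjusted p = 1, edgeR). Odc1, the first enzyme of polyamine synthesis, also had lower ratios in every cHet pool, as did 4.64% of all genes. Its log2 ratios were -1.34, -1.19 and -0.99 in cHet against -0.94, -0.8 and -0.97 in control, so the groups nearly touched. Its change was -0.26 (SE 0.17, unadjusted p = 0.139, edgeR). Prkaca, the catalytic subunit of protein kinase A, and Topbp1, which acts in DNA replication, had changes of -0.36 each, with pools that overlapped. Dvl1 and Dvl2 of Wnt signalling, the cyclin Ccne1 and the GTPase Rac1 were between -0.08 and 0.03, and the intervals of Dvl1, Dvl2, Ccne1 and Rac1 all lay within 1.5-fold. Of the rest, Setd3, E2f1, Prkra and Gnb2 had changes of -0.10, 0.06, 0.13 and 0.37, with pools that overlapped. The change of Gnb2, the largest rise of the list, ran from 0.118 to 0.576 over the alternative settings. Without cHet pool 1 the list's median was 0.027, and 0.071 without the 3 high-Ttr pools (cHet pool 1 and control pools 1 and 3).

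Genes of the cytosolic translation machinery had list medians near 0 in both directions. Of 76 cytosolic ribosomal protein genes tested, 60 were lower and 16 higher in cHet by sign, with a median of -0.084, 0 with an unadjusted p under 0.05 and 3 with ratios lower in all cHet pools, a share below the 4.64% of all genes. For description, Rps29 had ratios of -4.87, -4.77 and -4.85 in cHet and -4.25, -4.16 and -4.69 in control pools (log2), a change of -0.48 (SE 0.31). Such genes have many processed copies in the genome, so their counts are uncertain. The other 2 of the 3 were Rpl12 and Rpl5, with changes of -0.35 and -0.27. The list's pool medians overlapped widely, since cHet pool 2 was lowest at -0.235 and cHet pool 3 highest at 0.176 after centring, and without cHet pool 2 the median was 0.017. Translation initiation factors were higher by sign in 25 of 36 (median 0.07), aminoacyl-tRNA synthetases in 17 of 20 (median 0.095), and chaperones of the endoplasmic reticulum in 17 of 18 (median 0.147), with 0 of them at an unadjusted p under 0.05. For the chaperones, the folding factors Calr and Pdia6 had changes of 0.26 and 0.23. With 1 pool left out, the medians were as low as 0.036 for initiation factors and -0.011 for synthetases (both without control pool 2) and 0.069 for the chaperones (without cHet pool 3). Hosts of small nucleolar RNAs, transcripts with little coding content, were higher in 12 of 15 (median 0.096). Of these, Snhg20, Snhg5 and Snhg1 had an unadjusted p under 0.05, against 1.58% of all genes in that direction. Snhg5 was at 5.13, 6.04 and 7.52 CPM in cHet polysomes and 4.59, 5.06 and 4.96 CPM in control polysomes, but cHet pool 1 had the lowest value of the list (-0.484 after centring), and the median was -0.027 without cHet pool 3. The mRNAs of the mitochondrial genome, which ribosomes inside mitochondria translate, were higher in 10 of 10, and their median of 0.742 was the highest of the 31 lists. Their pool medians overlapped between genotypes (0.127, 0.0616 and 0.463 in cHet, against -0.265, -0.662 and 0.0991 in control), and the median was 0.481 without control pool 2. Of the 10, 7 had a mean of at least 2 CPM. The list's median genotype effect was -0.523 in the monosome and 0.084 in the polysome. Beside this, mitochondrial read pairs were 6.91, 4.97 and 5.47% of the cHet monosome and 6.47, 10.2 and 6.98% of the control monosome. They were only 0.01945 to 0.03992% of the polysome libraries, and their part in the result was not tested.

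Of the lists for cortical cell types, radial glia markers were mostly higher and excitatory neuron markers mostly lower by sign, a difference that was not tested. Radial glia markers, the stem cells of the cortex, were higher in cHet for 15 of 18 by sign (median 0.121). Hes1 and Sox9 had an unadjusted p under 0.05, against 1.58% of all genes in that direction. Hes1, a target of Notch signalling, had ratios of -0.78, -0.66 and -0.44 in cHet and -0.95, -1.02 and -1.01 in control pools (log2), a change of 0.36 (SE 0.15, unadjusted p = 0.024, adjusted p = 1, edgeR). Its polysome level was 21.1, 19 and 21.6 CPM in cHet and 21.3, 19.6 and 20.9 CPM in control, and its monosome level was 36.3, 30 and 29.3 CPM in cHet against 41.3, 39.9 and 42.1 CPM in control. Sox9, a stem cell transcription factor, had a change of 0.38 (SE 0.16). Cell cycle genes were higher in 30 of 36 (median 0.117), with Tyms of thymidylate synthesis at 0.42. Markers of excitatory cortical neurons were lower for 13 of 18 (median -0.094). Slc17a7, the vesicular glutamate transporter of these neurons, was at 112, 98.9 and 117 CPM in the cHet monosome and 81, 80.7 and 83.9 CPM in the control monosome, with polysome values that overlapped and a change of -0.41 (SE 0.17, unadjusted p = 0.0242). The medians of these 3 lists kept their sign in all 15 alternative settings but shrank with 1 pool left out. Without control pool 2 they were 0.001 for cell cycle genes and 0.0167 for radial glia, and without cHet pool 3 that of excitatory neurons was -0.0337. Pools of both genotypes overlapped in each list. For the CPM levels given here, fewer cells of a type and less RNA per cell cannot be told apart in bulk samples.

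The pool medians did not overlap in 2 of 31 lists, both of cells outside the Emx1 lineage and both higher in cHet. Among single genes, 3.92% were higher and 4.64% lower without overlap, so the 2 lists are given as a description. Endothelial markers were higher by sign in 11 of 13 (median change 0.37), 7 with ratios higher in all cHet pools and 3 with an unadjusted p under 0.05, against 3.92% and 1.58% of all genes. After centring each gene on its mean, the list stood at 0.153, 0.11 and 0.152 in the cHet pools, against -0.243, -0.240 and -0.018 in control pools. Sox18, Esam and Emcn led it. Esam, an adhesion molecule of vessel walls, was at 25.9, 29 and 17.2 CPM in cHet polysomes and 15.8, 17.7 and 24.6 CPM in control polysomes, at levels that overlapped. In the monosome it was at 3.81, 4.23 and 3.38 CPM in cHet, below the 4.52, 4.99 and 5.07 CPM of the controls, and its change was 0.66 (SE 0.27). The summed level of the list moved between pools too, at 652, 692 and 484 CPM in cHet polysomes and 474, 429 and 741 CPM in control polysomes, with none of its 13 markers at 0. Microglial markers were higher in 11 of 16 (median 0.40), at 0.027, 0.177 and 0.174 in cHet and -0.041, -0.216 and -0.088 in control pools, but 8 of the 16 had a mean under 2 CPM, and the median was 0.209 without cHet pool 2. Erythroid genes, whose globin copies are near-identical, were higher in 13 of 15 (median 0.41), with cHet pool 1 (-0.381) below every control pool and a median of 0.05 without cHet pool 3. The part of tissue composition in these values was not tested. Choroid plexus markers, whose summed polysome level was 71.02, 53.9 and 27.9 CPM in cHet against 153.2, 53.6 and 158.9 CPM in control, had a median change of -0.26 that was 0.0084 without cHet pool 1.

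**Figure D3:**
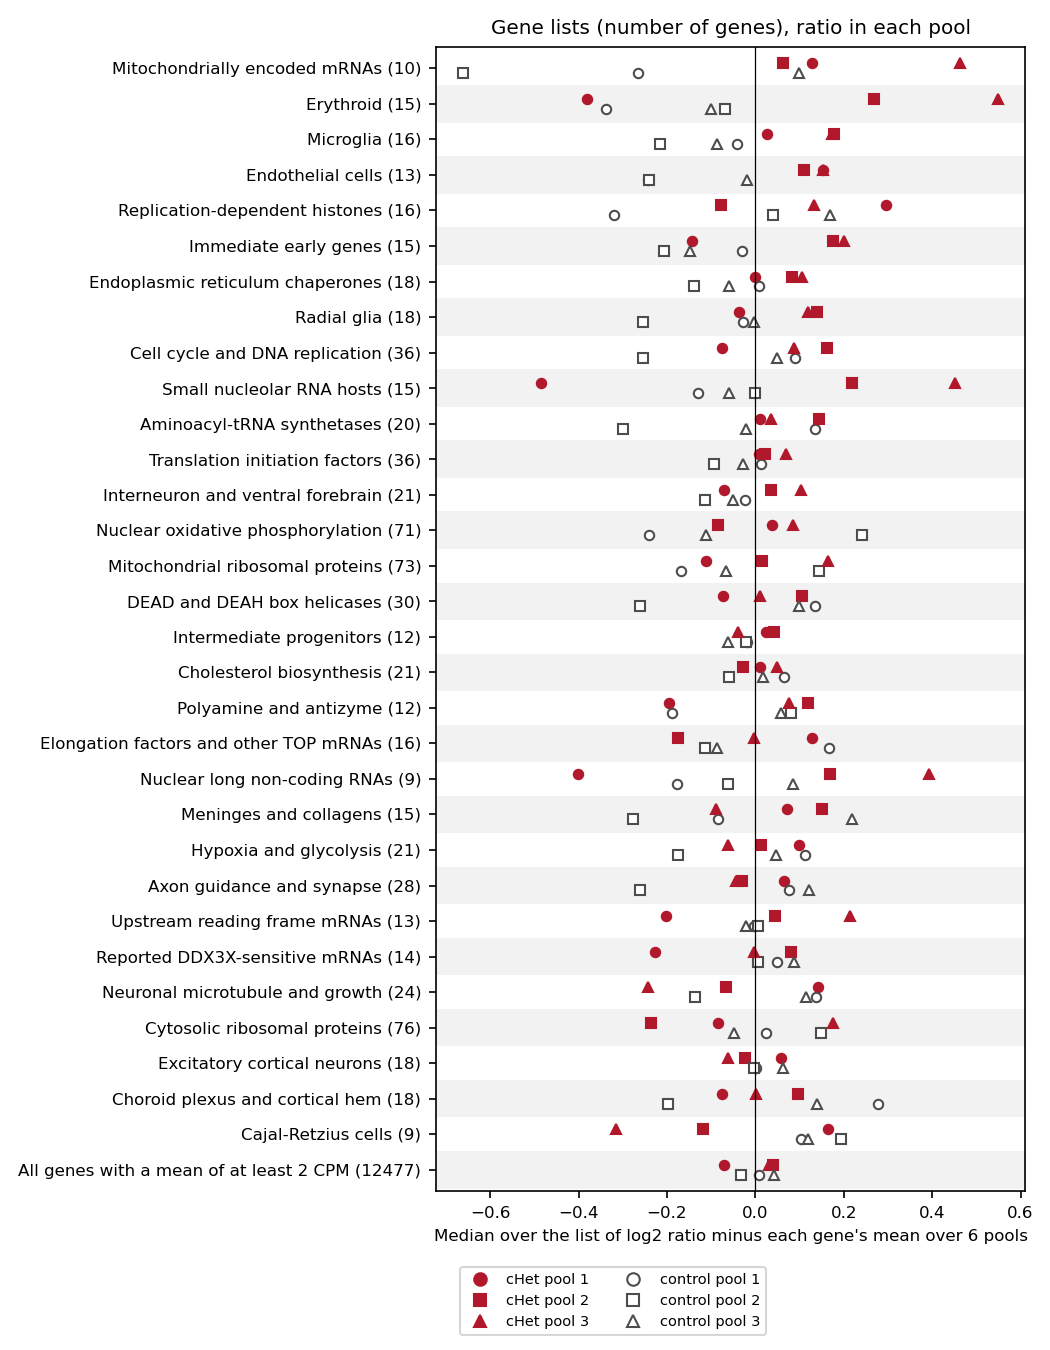
Median over each gene list of the log2 polysome to monosome ratio after centring each gene on its mean over the 6 pools, lists ordered by median change; filled red symbols are cHet pools, open grey symbols control pools, and the last row gives all 12477 genes with a mean of at least 2 CPM. Endothelial and microglial markers are the 2 lists in which the genotypes do not overlap.

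The other lists, chosen for the tissue and the assay, had 0 genes past the adjusted threshold. Immediate early genes, which cells switch on within minutes of a stimulus, were higher by sign in 12 of 15 (median 0.2, and 0.077 without cHet pool 3). Among them the phosphatase Dusp1 was at 35.6, 28.2 and 29.1 CPM in cHet polysomes and 30.8, 28.2 and 26.9 CPM in control polysomes, with a change of 0.38 (SE 0.17). Markers of intermediate progenitors were higher in 7 of 12 (median 0.05, and -0.067 without cHet pool 1), led by the proneural factor Neurog1 at 0.48 (SE 0.18), and those of interneurons and the ventral forebrain in 14 of 21 (median 0.069, and 0.039 without control pool 3). Cajal-Retzius cells, early neurons at the surface of the cortex, had 6 of 9 markers lower (median -0.286). Calb2 and Trp73 were lower in every cHet pool, as were 4.64% of all genes, with changes of -0.64 and -0.38. The list median was -0.048 without cHet pool 3, and the change of Calb2 was -0.33 without cHet pool 2. Markers of the meninges were higher in 7 of 15 (median -0.0053, and 0.316 without control pool 3). Genes of neuronal microtubules and growth were lower in 18 of 24 (median -0.074), a median that was 0.001 without cHet pool 3, and those of axon guidance and synapses in 17 of 28 (median -0.027, and 0.062 without control pool 3).

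Among housekeeping lists, DEAD and DEAH box helicases were higher in 21 of 30 (median 0.054, and -0.078 without control pool 2), yet the abundant relatives Ddx5 and Ddx17 had changes of -0.37 (SE 0.21) and -0.29 (SE 0.20). Ddx5 was the 1 of the 30 with lower ratios in every cHet pool, a share below the 4.64% of all genes. Nuclear genes of oxidative phosphorylation were higher in 48 of 71 (median 0.068) and mitochondrial ribosomal proteins in 46 of 73 (median 0.066), and these medians were -0.022 without control pool 1 and -0.024 without cHet pool 3. Elongation factors and other mRNAs with a terminal oligopyrimidine leader were higher in 10 of 16 (median 0.015, and -0.101 without cHet pool 1). Of mRNAs with upstream reading frames, 4 of 13 were higher (median -0.03, and 0.081 without cHet pool 1), among them the oxidative stress regulator Nfe2l2 at 0.33 (SE 0.15). Polyamine genes, which include Sat1, were higher in 7 of 12 (median 0.023, and -0.072 without cHet pool 2), and the antizyme Oaz1, which blocks Odc1, had a change of 0.37 (SE 0.23). Genes of hypoxia and glycolysis were higher in 8 of 21 (median -0.026, and 0.047 without control pool 1). Those of cholesterol synthesis were higher in 13 of 21 (median 0.028, and -0.048 without control pool 2) and nuclear long non-coding RNAs in 6 of 9 (median 0.015, and -0.164 without cHet pool 3). Replication-dependent histones were higher in 10 of 16 (median 0.252, and 0.12 without control pool 3), but 4 of the 16 had a mean of at least 2 CPM.

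Transcript features were then set against the ratio, since the leader is the known site of DDX3X action. Over 11499 genes with a leader in the annotation, the linear slope of the ratio on leader GC content was negative in every pool. The fall was not steady. From the lowest to the highest quintile of leader GC, the median log2 ratio of the controls was 0.209, 0.413, 0.412, 0.366 and 0.0439. The slope for each 10 percentage points of GC was -0.0778, -0.0458 and -0.0524 in cHet pools and -0.0381, -0.0314 and -0.036 in control pools (log2). All cHet slopes were steeper, with means of -0.0587 ± 0.0169 in cHet and -0.0351 ± 0.0034 in control (SD, n = 3 each; two-sided exact permutation test p = 0.1, the smallest that 3 against 3 allows, and 0.3 after adjustment over the 6 features tested). The median change ran from 0.024 in the quintile of genes with the least GC in the leader to -0.035 in the quintile with the most, and 55.7 and 40.3% of genes were above 0 in these 2. Without cHet pool 1 the difference between genotypes in leader GC slope was -0.014, against -0.0235 with it. Coding GC content showed slopes in the same direction. Coding slopes were -0.134, -0.171 and -0.116 in cHet and -0.106, -0.0203 and -0.0976 in control pools (exact permutation p = 0.1, adjusted 0.3), with 66.2% of genes above 0 in the lowest quintile and 37.2% in the highest. With coding length, leader length and both GC contents in 1 model, the leader GC slopes remained steeper in all cHet pools. Their means were -0.115 ± 0.0116 in cHet and -0.092 ± 0.00861 in control (exact permutation p = 0.1). The coding GC slopes in that model were 0.039, -0.00567 and 0.0465 in cHet and 0.0681, 0.119 and 0.0724 in control pools. Most had thus changed sign against the fit of coding GC alone, though the genotypes still did not overlap. In T532M, the median change ran from 0.0711 to -0.0848 over the same quintiles of leader GC. It ran from 0.0367 to -0.0226 over coding GC and from 0.0764 to -0.0343 over leader length. Over coding length the T532M change went from -0.134 to 0.158, a wider span than over leader GC. The quintile medians show which LoF pools carry the leader GC pattern. In cHet pool 1 the centred ratio was -0.0402 at the least GC and -0.123 at the most, while cHet pools 2 and 3 were nearly flat and control pools 2 and 3 were higher at the most. The part of library base composition in this was not tested.

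Over quintiles of leader length the change spanned more than over leader GC, but 1 cHet pool did not share the pattern. The median change ran from 0.046 in the quintile with the shortest leaders (1 to 90 bases) to -0.054 in the quintile with the longest (389 bases or more), and the share above 0 from 60.9 to 37%. In cHet pools 2 and 3 the centred ratio went down with leader length, at 0.0706 and 0.112 in the shortest quintile and -0.00795 and -0.038 in the longest. In cHet pool 1 it went up, at -0.105 in the shortest and -0.0207 in the longest. The slopes for each doubling of length were 0.085, 0.0356 and 0.0232 in cHet pools and 0.0683, 0.0783 and 0.0697 in control pools, which overlapped (exact permutation p = 0.4). Without cHet pool 1 the difference in slope was -0.0427, against -0.0242 with it, and the slopes of the other cHet pools lay below all control slopes. Coding length, which sets how many ribosomes fit on an mRNA, had slopes of 1.09, 1.13 and 1.06 in cHet pools and 1.18, 0.956 and 1.15 in control pools, with a mean difference of -0.0034 (exact permutation p = 1). The largest departure in coding length was a control. In control pool 2 the centred ratio was 0.201 in the quintile with the shortest coding parts and -0.228 in the quintile with the longest, against -0.168 and 0.102 in control pool 1. The median change over the same quintiles stayed between -0.0243 and 0.0116.

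**Figure D4:**
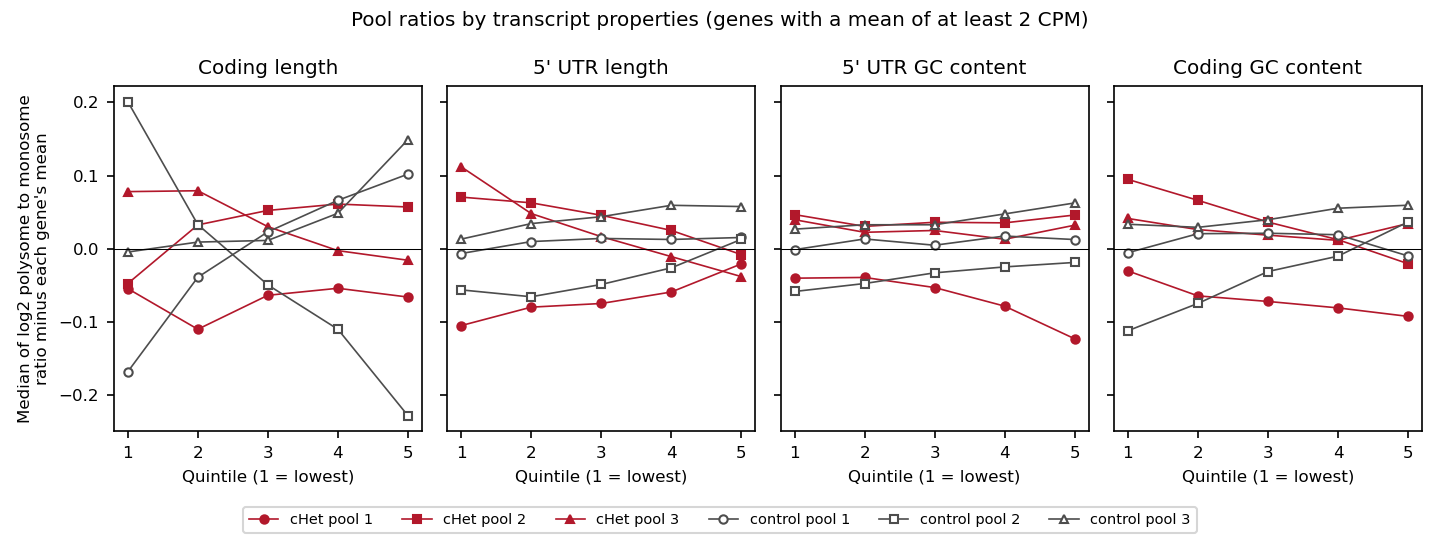
Median of the log2 polysome to monosome ratio, centred on each gene's mean over the 6 pools, in quintiles of genes by coding length, leader (5' UTR) length, leader GC content and coding GC content; red lines with filled symbols are cHet pools, grey lines with open symbols control pools. Control pool 2 runs opposite to controls 1 and 3 along coding length, and cHet pool 1 runs opposite to cHet pools 2 and 3 along leader length.

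The T532M cross shares no library with LoF, so it gives a separate measure of the polysome to monosome ratio. Its controls carry Emx1-Cre and those of LoF do not, so Cre separates the groups in LoF only. In T532M 11 of 18243 genes (0.0603%) passed at an adjusted p of 0.0486 each (edgeR), all lower in T532M cHet. There 1249 (6.85%) had an unadjusted p under 0.05. Of those 11, chosen here after their values were seen, 10 had a mean of at least 2 CPM in LoF, and all 10 were lower in LoF cHet by sign, at smaller size. Rcor2 had -0.40 in LoF and -1.21 in T532M, and Gnb1, a G protein subunit, -0.41 in LoF and -0.90 in T532M. In LoF the 10 had genotype effects of -0.0903 to 0.0769 in the polysome and 0.155 to 0.369 in the monosome. The larger effect was thus in the monosome for all 10, against 57.6% of all 12477 genes at 2 CPM or more. Of the 10, 5 had an unadjusted p under 0.05 in the monosome and 0 in the polysome. Of the 12477 genes, 554 had one in the monosome and 210 in the polysome. Gnb1 was at 912, 1156 and 1339 CPM in the cHet monosome and 947, 874 and 877 CPM in the control monosome, with cHet pool 1 among the controls. Ankrd13a, a ubiquitin-binding protein, was at 89.2, 83.8 and 95.7 CPM in the cHet monosome, above the 63.8, 78.1 and 66.1 CPM of the control monosome. The kinase subunit Prkaca had -0.36 in LoF and -0.72 in T532M, and the Wnt effector Dvl3 -0.18 in LoF and -1.03 in T532M. The 11th gene, Gm12999, was at 0.35 CPM. Klhdc2, a receptor of protein quality control, had the change nearest 0 of the 10 (-0.09, SE 0.16).

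Changes in both crosses were related across genes. Over 12477 genes with at least 2 CPM, Pearson's r was 0.29 and Spearman's rho 0.311, with 61.6% of genes on the same side of 0; genes are not independent replicates. After a linear fit removed coding length, leader length and both GC contents, r was 0.295 over 11499 genes, against 0.309 before. Of the 146 LoF decreases with an unadjusted p under 0.05, 115 (78.8%) were also lower in T532M, and 31 had an unadjusted p under 0.05 there in the same direction against 1 in the opposite direction (21.9% in all). Of the 138 increases, 94 (68.1%) were higher in T532M, 7 of them at an unadjusted p under 0.05 and 0 in the opposite direction (5.07%). Over all 12477 genes 798 were at an unadjusted p under 0.05 in T532M with the same sign and 170 with the opposite sign (7.76%), so the share of the increases lay below that of all genes. Slc17a7 was among the shared decreases, at -0.41 in LoF and -0.49 in T532M. Sat1 was not shared, at 0.85 in LoF and -0.28 in T532M. The test of the difference between the crosses found 0 of 19121 genes (0%) at an adjusted p under 0.05 and 593 (3.1%) at an unadjusted p under 0.05, and DESeq2 0 and 669. Of the 31 lists, 18 had medians of the same sign in both crosses. Radial glia (0.121 and 0.215), cell cycle genes (0.117 and 0.241), excitatory neurons (-0.094 and -0.211) and endoplasmic reticulum chaperones (0.147 and 0.132) were among these, and microglia (0.4 and -0.143) among the other 13.

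**Figure D5:**
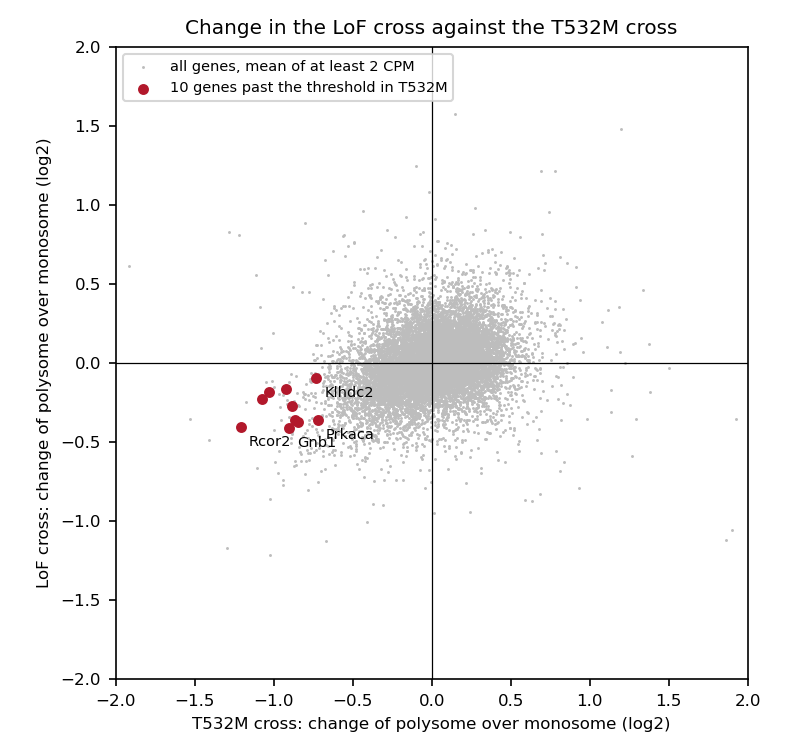
Change of polysome over monosome (log2, cHet minus control) in the LoF cross (vertical) against the T532M cross (horizontal), 1 point for each of 12477 genes with a mean of at least 2 CPM; 2 points lie outside the axes. Red points are the 10 genes past the threshold in T532M at this level, which all lie in the lower left of the plot.

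The number of genes at low p depended on single pools. Without cHet pool 1 the count at an unadjusted p under 0.05 was 1654 (846 higher, 808 lower) in place of 561, with 0 past the adjusted threshold and a smallest adjusted p of 0.138. Without the 3 pools with most Ttr, which leaves cHet pools 2 and 3 against control pool 2 alone, 203 genes passed, 196 of them lower in cHet. In that fit the lone control is assumed to vary like the other groups, and control pool 2 is the one whose coding length pattern ran opposite to the other controls. Cotl1, an actin-binding protein and the first of the 203 by p, had monosome levels of 63, 277 and 249 CPM in cHet pools 1, 2 and 3, against 192, 67.6 and 141 CPM in control pools 1, 2 and 3. Its low values were thus in 1 pool of each genotype, and its change over all pools was -0.70 (SE 0.52, unadjusted p = 0.195). Stmn2, a neuronal microtubule protein, had the same order, with 221, 538 and 397 CPM in the cHet monosome and 356, 240 and 300 CPM in the control monosome. Cotl1 was chosen after its values were seen.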

How the data were processed

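The authors deposited raw read pair counts per gene for 55487 genes. Per the file headers, featureCounts 2.0.3 counted over whole genes, introns included, with strand setting 2, on GENCODE M25 (GRCm38), so genes that overlap on 1 strand lose reads. The submitters' processing notes list STAR 2.7.11a, Subread 2.0.3, DESeq2 1.34.0 and FastQC 0.11.7. The authors' deposited tables of fold changes were not used.

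Counts of the 18 LoF libraries were tested in R 4.3.3 with edgeR 4.0.16 (filterByExpr, TMM, quasi-likelihood, 6 group terms), as polysome minus monosome of cHet minus control. Standard errors and 95% intervals come from unshrunken coefficients. Per the labels' protocols, fractions and input were taken from 1 lysate, which the replicate number in the titles marks; deviations of monosome and polysome correlated at 0.401, 0.326 and 0.43 in cHet pools and 0.0563, 0.0947 and 0.277 in control pools. Pool ratios used log2 CPM with a prior count of 3. Coding and leader features came from GENCODE M21, in place of protein lengths. Named genes were Ddx3x, 10 increases and 10 decreases by the rule stated in the text, up to 3 members of each list and members of the reported DDX3X-sensitive list; some named items and sequences are not reported here; the 11 T532M genes and Cotl1 were added later. Members and the 31 lists were chosen with earlier results of these data known. The fits were run on simulated data in which all fractions shared a gene's mean, apart from the changes set. No pool effect was simulated, so this was a check of the code only. Alternatives used DESeq2 1.42.0, other filters, scalings and left-out pools.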

Additional observations from a re-analysis of the deposited data

How the results depend on the processing

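For LoF polysome over monosome, 13 of 15 alternatives also gave 0 genes past the threshold: another scaling, a mean of at least 2 CPM, DESeq2, monosome and polysome libraries only, no rRNA models or mitochondrial genes, assigned names only, each pool left out (0 in each) and the lysate as a replicate block, which gave 0 genes past the threshold and 628 at an unadjusted p under 0.05. Without the low-count filter 2 passed, Gm15564 (-1.23, adjusted p = 0.0211, edgeR) and Mir6236 (-1.19, adjusted p = 0.0211, edgeR). Both were named after their values were seen, and both were lost with the filter (adjusted p = 1). They are among the gene models over ribosomal RNA, whose shares of read pairs differed between pools. Without the 3 pools with most Ttr 203 passed, with 1 control left. Counts at an unadjusted p under 0.05 with 1 pool left out ran from 391 to 1654, the highest without cHet pool 1. For LoF minus T532M all 16 alternatives gave 0, also with the replicate block. DESeq2 size factors moved the median of all genes by 0.0221. Named genes moved by no more than 1 standard error in 1758 of 1824 values, and 5 (Dtx1, mt-Nd6, Stmn2, Stmn3 and Hba-a1) passed without the 3 Ttr pools. The median of the T532M genes in LoF ran from -0.338 to -0.243 over 15 alternatives. List medians kept their sign in 415 of 464 values. The slope differences of leader GC (-0.030 to -0.014) and coding GC (-0.081 to -0.038) kept their sign in 10 of 10 alternatives, that of coding length in 6. Where values moved, the cause was not tested.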
